A study of Mus musculus with 34 samples.

Results

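Ephrins and Eph receptors are the membrane-bound ligands and receptor tyrosine kinases with which neighbouring cells attract or repel each other. In limb buds of *Hnrnpk* conditional knockout (CKO) and wild-type (WT) mouse embryos, 10 of these genes were taken from the mRNA-seq table by gene symbol. They were the ephrins *Efna1*, *Efna2*, *Efna5*, *Efnb1* and *Efnb2* and the receptors *Epha3*, *Epha4*, *Epha7*, *Ephb2* and *Ephb3*, 10 of the 22040 genes in the table. The CKO embryos were Prrx1-Cre;Hnrnpk fl/fl, in which Cre driven by *Prrx1* regulatory sequence deletes floxed *Hnrnpk* in limb bud mesenchyme and in the calvarium, and the WT embryos carried functional *Hnrnpk*, with their Cre and floxed alleles not given in the sources used here. Limb buds were collected at E11.5 from embryos of both sexes, which were not separated, and each genotype was represented by 3 RNA-seq libraries from biological replicates. The question was how the level of each gene differed between the genotypes. The values were FPKM, the fragments of a gene scaled by its length and by a size given to the library, so that levels could be compared between genes.

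Ephrin-A ligands are held in the membrane by a lipid anchor and bind mainly EphA receptors, while ephrin-B ligands span the membrane and bind mainly EphB receptors, with *Epha4* a receptor for ligands of both classes. Contact between cells starts forward signalling in the cell with the receptor and reverse signalling in the cell with the ephrin. In the limb bud the family is known for keeping groups of mesenchymal cells apart, for the shape of cartilage condensations, for vessel growth and for steering motor axons into dorsal or ventral muscle.

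*Hnrnpk* itself read 193, 195 and 185 FPKM in WT replicates 1 to 3 and 127, 142 and 135 FPKM in the CKO replicates. All CKO libraries lay below all WT libraries, with a mean of 191 ± 4.996 FPKM in WT and 135 ± 7.48 FPKM in CKO (SD, n = 3 each). The log2 fold change was -0.50 (SE 0.127) with a limma adjusted *p* of 0.334, and of 0.0575 with the replicate number as a block. *Hnrnpk* passed in the libraries numbered 2 and 3 alone (limma adjusted *p* 0.0377) and with limma voom and the block on recovered reads (0.0244), a method chosen after seeing the data, and its adjusted *p* ran up to 1.0 over the other settings. The values are for the whole gene, so reads of deleted and intact alleles cannot be told apart. Exons of *Hnrnpk* share 330 bases with *Rmi1* on the opposite strand.

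The libraries carried 17140869 to 24624434 reads on listed genes, as recovered from the FPKM steps. These reads were 0.947 to 1.11 times the library size in the FPKM, above 1 in CKO replicates 2 (1.11) and 3 (1.03), and how that size was set is not given in the sources used here. Both libraries numbered 1 stood apart from the rest on the first principal component, which held 52.6% of the variance, and the genotypes separated on the second, which held 26%. In 5898 of the 12305 genes tested (47.9%) both number 1 libraries lay above, or both below, all of the other 4 libraries, and this was so for 5 of the 10 ephrin and Eph genes (*Efna1*, *Efna2*, *Efnb2*, *Ephb2* and *Ephb3*). The libraries numbered 2 and 3 alone, fitted without a block, gave 1851 genes (15.0%) with a limma adjusted *p* under 0.05.

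None of the 10 genes passed the test between genotypes. All 10 reached the mean of 0.5 FPKM needed for testing, and 0 had a limma adjusted *p* under 0.05 over all 12305 genes, where 8 genes (0.0650%) did. With the replicate number as a block, 0 of the 10 passed while 346 genes (2.81%) did, and limma voom on recovered reads, chosen after seeing the data, called 0 of them without the block, where 0.0813% of all genes were called, and 0 with it, where 5.32% were. At an unadjusted *p* under 0.05 the count was 0 of 10 without the block against 8.31% of all genes, and 1 of 10 with it (*Efna2*) against 18.4%. Most differences had the same sign. Of the 10 genes 9 had a lower mean log2 level in CKO and *Epha4* had a higher one, beside 49.1% of all genes with a log2 fold change below 0. The median log2 fold change was -0.19 for the 10 genes and 0.0048 for all genes tested, and the median of the 10 was -0.0813 without CKO replicate 2. Only *Epha7* had CKO and WT values that did not overlap, 1 of 10 beside 14.5% of all genes. Fold changes are on the log2(FPKM + 0.1) scale throughout, with 95% limma intervals. The 3 libraries of each genotype allow a two-sided exact permutation *p* no smaller than 0.1.

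**Figure D1:**
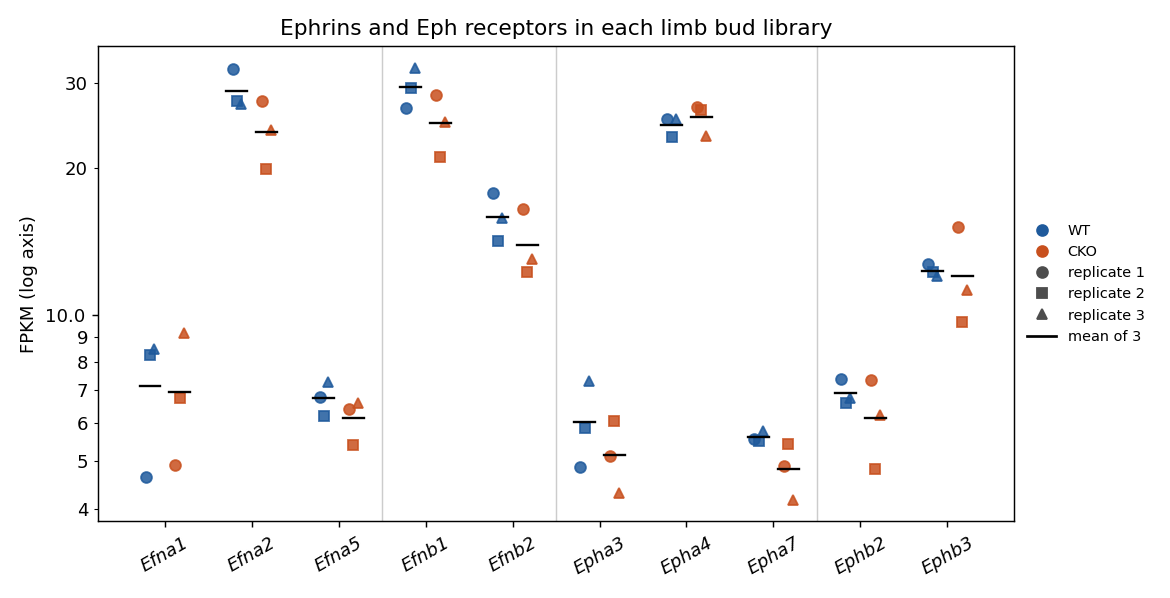
FPKM on a log axis of each of the 10 genes in 3 WT (blue) and 3 CKO (orange) libraries, with symbols for the replicate number and a black bar for the mean of 3. *Efnb1*, *Efna2* and *Epha4* lie at 20.0 to 32.2 FPKM and *Epha7* is the gene whose genotypes do not overlap.

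Among WT limb buds the most abundant of the 10 was *Efnb1* at 29.4 ± 2.78 FPKM, followed by *Efna2* at 28.9 ± 2.73 FPKM, and the ranges of this pair overlapped. *Epha4* came next at 24.6 ± 1.15 FPKM, then *Efnb2* at 15.9 ± 1.81 FPKM and *Ephb3* at 12.3 ± 0.358 FPKM, each clear of its neighbours in the order. The lower group ran from *Efna1* (7.14 FPKM) through *Ephb2* (6.90 FPKM), *Efna5* (6.75 FPKM) and *Epha3* (6.02 FPKM) to *Epha7* (5.61 FPKM), and in this group each gene overlapped the next. In CKO limb buds *Epha4* had the highest mean at 25.5 ± 1.88 FPKM, ahead of *Efnb1* at 24.8 ± 3.61 FPKM and *Efna2* at 23.8 ± 3.78 FPKM, with overlapping ranges from each to the next. The order from *Efnb2* down to *Epha7* had the same sequence of genes in both genotypes. Among all genes tested, mean FPKM put *Efnb1* at the 85.9th percentile and *Epha7* at the 40.9th.

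Of the ephrin-A ligands, *Efna2* had the largest fold change of the 10 genes over all 6 libraries. It read 32.0, 27.5 and 27.1 FPKM in WT replicates 1 to 3 and 27.5, 20.0 and 23.9 FPKM in CKO. The groups overlapped, since CKO replicate 1 lay just above WT replicates 2 and 3, and within each replicate number the CKO library was the lower. The log2 fold change was -0.29 (SE 0.149, 95% interval -0.63 to 0.06) with a limma adjusted *p* of 0.681. Without CKO replicate 2 it was -0.165, smaller than that of *Epha3* (-0.33) and *Epha7* (-0.31), and without WT replicate 1 it was -0.21, smaller than those of *Epha3*, *Efnb1*, *Efna1* and *Epha7* (-0.35, -0.32, -0.31 and -0.23). In the libraries numbered 2 and 3 alone it was -0.32, smaller than that of *Efnb1* (-0.42) and *Epha3* (-0.35). *Efna5*, a ligand known for repelling axons that carry EphA receptors, read 6.80, 6.19 and 7.27 FPKM in WT and 6.41, 5.41 and 6.58 FPKM in CKO. It too was lower in CKO within each number, by an amount near the SD of either group, at a log2 fold change of -0.14 (SE 0.131, limma adjusted *p* 0.849).

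*Efna1*, a ligand first known from endothelial cells, followed the replicate number and not the genotype. Its values were 4.64, 8.26 and 8.52 FPKM in WT and 4.92, 6.76 and 9.17 FPKM in CKO. Both number 1 libraries were the lowest of their genotype. The log2 fold change of -0.03 (SE 0.293, limma adjusted *p* 0.985) had the widest interval of the 10 genes, -0.71 to 0.65, and its sign turned to 0.10, 0.12 and 0.19 without WT replicate 2, WT replicate 3 and CKO replicate 1.

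Of the ephrin-B ligands, *Efnb1*, an X-linked gene whose loss in humans and mice disturbs craniofacial and skeletal boundaries, read 26.7, 29.3 and 32.2 FPKM in WT and 28.3, 21.1 and 24.9 FPKM in CKO. The number 1 CKO library lay above its WT partner, and CKO libraries 2 and 3 lay below all WT libraries. Over all 6 libraries the log2 fold change was -0.25 (SE 0.145, 95% interval -0.59 to 0.09, limma adjusted *p* 0.714). In the libraries numbered 2 and 3 alone it was -0.42 with a limma adjusted *p* of 0.0257, the only call among the 10 genes in any setting, where 15.0% of all genes were called. Its adjusted *p* ran from 0.0257 to 1.0 over all settings tried. *Efnb2*, known as a marker of arterial endothelium and expressed in mesenchyme too, read 17.8, 14.2 and 15.8 FPKM in WT and 16.5, 12.3 and 13.1 FPKM in CKO. It was lower in CKO within each number while the groups overlapped, at a log2 fold change of -0.20 (SE 0.152, limma adjusted *p* 0.809).

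The cytoplasmic tails of the ephrin-B proteins carry their reverse signal and end in a motif that binds PDZ domains. The last 102 coding bases before the stop codon are shown to compare this tail between the ephrin-B genes of the limb bud, in GRCm38 with GENCODE vM21 models, 5′ to 3′ on the coding strand and within the last coding exon. *Efnb1* was read from chrX:99147423-99147524 on the + strand, *Efnb2* from chr8:8620591-8620692 on the - strand, and *Efnb3*, the remaining ephrin-B gene, from chr11:69555863-69555964 on the - strand. Capitals mark the final 9 coding bases, which encode the end bound by PDZ domains.
Efnb1: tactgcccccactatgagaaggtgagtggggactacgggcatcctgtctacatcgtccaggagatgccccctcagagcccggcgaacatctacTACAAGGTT
Efnb2: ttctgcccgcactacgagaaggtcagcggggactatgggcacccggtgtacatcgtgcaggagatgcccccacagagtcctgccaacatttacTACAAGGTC
Efnb3: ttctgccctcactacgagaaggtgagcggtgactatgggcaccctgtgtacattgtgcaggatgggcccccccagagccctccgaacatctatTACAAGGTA
The tails were 84.3% identical in bases between *Efnb1* and *Efnb2*, 82.4% between *Efnb1* and *Efnb3* and 85.3% between *Efnb2* and *Efnb3*. Of the 34 codons, 16, 17 and 13 differed in these pairs, and in 15, 14 and 12 of them the third base differed.

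Of the EphA receptors, *Epha7*, a receptor of limb mesenchyme whose gene is a known target of HOXA13 in the autopod, was the gene without overlap. It read 5.57, 5.495 and 5.78 FPKM in WT and 4.90, 5.43 and 4.17 FPKM in CKO. WT values lay close together and CKO replicate 2 was just under the lowest of them. The mean was 5.61 ± 0.148 FPKM in WT and 4.83 ± 0.631 FPKM in CKO, a log2 fold change of -0.22 (SE 0.133, 95% interval -0.53 to 0.09, limma adjusted *p* 0.723). The exact permutation *p* was 0.1, the smallest possible, and quantile normalization left 0 of the 10 genes without overlap.

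*Epha4*, which dorsal limb mesenchyme expresses and which steers motor axons of the limb, was the gene with the higher mean in CKO. It read 25.2, 23.2 and 25.2 FPKM in WT and 26.8, 26.4 and 23.3 FPKM in CKO. CKO replicates 1 and 2 were above all WT libraries and CKO replicate 3 was near the lowest of them. The log2 fold change of 0.05 (SE 0.113, limma adjusted *p* 0.932) had the narrowest interval of the 10 genes, from 0.865-fold to 1.24-fold of WT. With each library left out in turn it ran from 0.0135 (without WT replicate 2) to 0.115 (without CKO replicate 3). Quantile normalization gave 0.0046. *Epha3*, a receptor for ephrin-A ligands, read 4.86, 5.85 and 7.33 FPKM in WT and 5.13, 6.05 and 4.298 FPKM in CKO. The fold change was -0.21 on the log2 scale (SE 0.190, limma adjusted *p* 0.837). Matched by number, the replicate 3 libraries differed by -0.76, while those of replicates 1 and 2 differed by 0.07 and 0.05. The data did not tell number 2 from 3, so another match of these libraries would give other differences.

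Of the EphB receptors, *Ephb2*, a partner of ephrin-B ligands in forward and reverse signalling, read 7.37, 6.58 and 6.74 FPKM in WT and 7.37, 4.83 and 6.24 FPKM in CKO. The number 1 libraries differed by -0.00069 on the log2 scale, and CKO replicates 2 and 3 were below WT. Its fold change on the log2 scale was -0.18 (SE 0.167, limma adjusted *p* 0.838). *Ephb3*, which shares ligands with *Ephb2*, read 12.7, 12.3 and 12.015 FPKM in WT and 15.2, 9.66 and 11.3 FPKM in CKO. The CKO libraries lay on both sides of WT and were spread more widely, with an SD of 2.84 FPKM against 0.358 FPKM. Its log2 fold change was -0.06 (SE 0.170, limma adjusted *p* 0.950) and became 0.08 without CKO replicate 2.

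**Figure D2:**
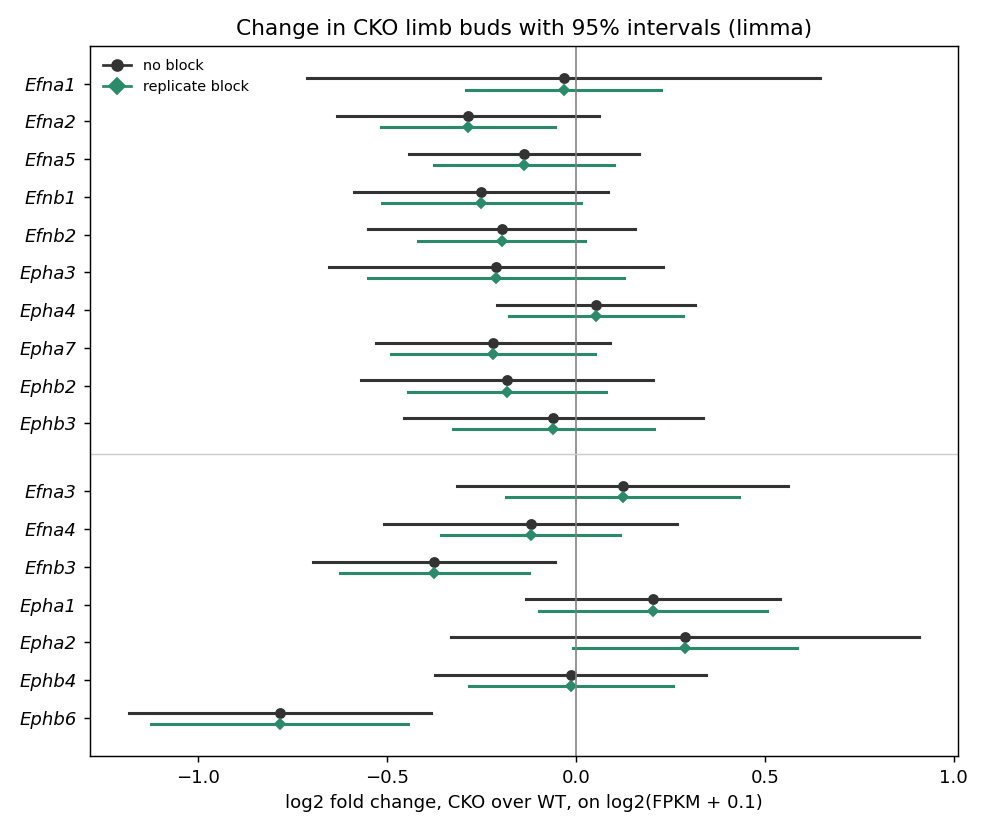
Log2 fold change of CKO over WT on the log2(FPKM + 0.1) scale for the 10 genes (upper block) and the 7 other family genes tested (lower block). Points are estimates and lines are 95% limma intervals, black without and green with the replicate number as a block; the intervals of the 10 genes include 0 without the block, and *Ephb6* lies farthest from 0 at -0.78.

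The size of the difference varied between replicate numbers. Numbers 2 and 3 were matched by label alone, since the data set number 1 apart but did not tell 2 from 3. The median log2 difference of the 10 genes, CKO minus WT, was 0.04 between the libraries numbered 1, -0.25 between those numbered 2 and -0.16 between those numbered 3. Over all genes tested the same medians were -0.014, 0.0014 and 0.0014. In the libraries numbered 2 and 3 alone, 6 of the 10 genes (*Efna2*, *Efnb1*, *Efnb2*, *Epha7*, *Ephb2* and *Ephb3*) were lower in CKO without overlap, beside 29.2% of all genes. Single libraries set much of the size. Without CKO replicate 2 the log2 fold change was -0.05 for *Efna5*, -0.14 for *Efnb1*, -0.11 for *Efnb2* and -0.02 for *Ephb2*. With each library left out in turn, *Epha3* ran from -0.35 (without WT replicate 1) to -0.06 (without WT replicate 3) and *Epha7* from -0.31 (without CKO replicate 2) to -0.12 (without CKO replicate 3). Without CKO replicate 1, *Efnb2* and *Ephb2* each reached -0.32.

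**Figure D3:**
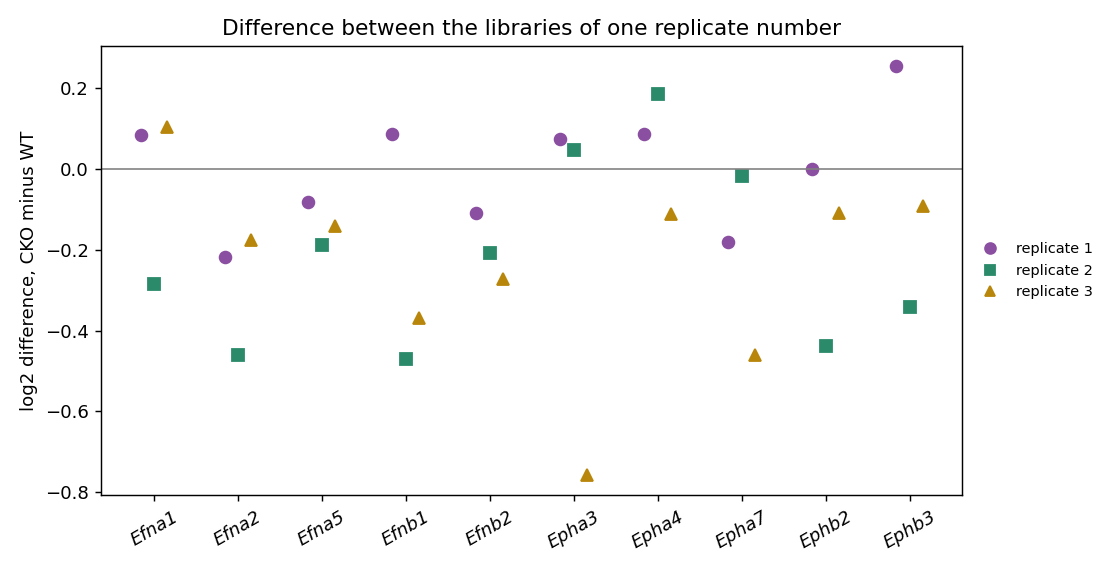
Log2 difference, CKO minus WT, between the libraries of the same replicate number for each of the 10 genes, with the number given by symbol and colour. *Efna2*, *Efna5*, *Efnb2* and *Epha7* are below 0 for each number, as is *Ephb2* by -0.00069 in replicate 1, and the lowest point is *Epha3* in replicate 3 at -0.76.

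The FPKM of the 10 genes were summed by class. Over all 6 libraries the CKO mean differed from WT by -13.7% for ephrin-A, -14.5% for ephrin-B, -1.91% for EphA and -5.45% for EphB. This order depended on single libraries. Without CKO replicate 1 the EphB sum differed by -16.8% and the ephrin-A sum by -16.0%, and in the libraries numbered 2 and 3 alone by -14.9% and -15.3%. Without CKO replicate 2 the sums differed by -8.17% for ephrin-A, -8.64% for ephrin-B, -5.22% for EphA and 4.14% for EphB. The EphA sum turned to 1.10% without WT replicate 3 and to 3.19% without CKO replicate 3. The ephrin-A sum was 43.5, 42.0 and 42.9 FPKM in WT and 38.8, 32.1 and 39.7 FPKM in CKO. All CKO sums were below all WT sums, at 42.8 ± 0.755 FPKM against 36.9 ± 4.14 FPKM. Within this sum the mean of *Efna2* was 28.9 FPKM in WT and 23.8 FPKM in CKO. The means were 7.14 and 6.95 FPKM for *Efna1* and 6.75 and 6.14 FPKM for *Efna5*, so the ephrin-A difference lay mostly in *Efna2*. The ephrin-B sum was 45.3 ± 2.40 FPKM in WT and 38.7 ± 5.75 FPKM in CKO, with CKO replicate 1 inside the WT range. The EphA sum was 36.2 ± 1.94 FPKM and 35.5 ± 3.24 FPKM, and the EphB sum was 19.2 ± 0.747 FPKM and 18.2 ± 4.07 FPKM. For both receptor classes the means differed by less than the SD of the CKO libraries. The ratio of ligand to receptor FPKM was 1.58, 1.599 and 1.59 in WT and 1.41, 1.25 and 1.58 in CKO. WT libraries were alike and CKO replicate 2 was the lowest, with CKO replicate 3 just under WT. These sums were described and not tested. The sums and the ratio leave out the other family genes, so they do not give the balance of the whole family. Among those left out were *Ephb4* (mean 43.1 FPKM in WT and 43.2 FPKM in CKO), *Efnb3* (25.9 and 20.1 FPKM) and *Efna4* (24.1 and 22.1 FPKM).

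**Figure D4:**
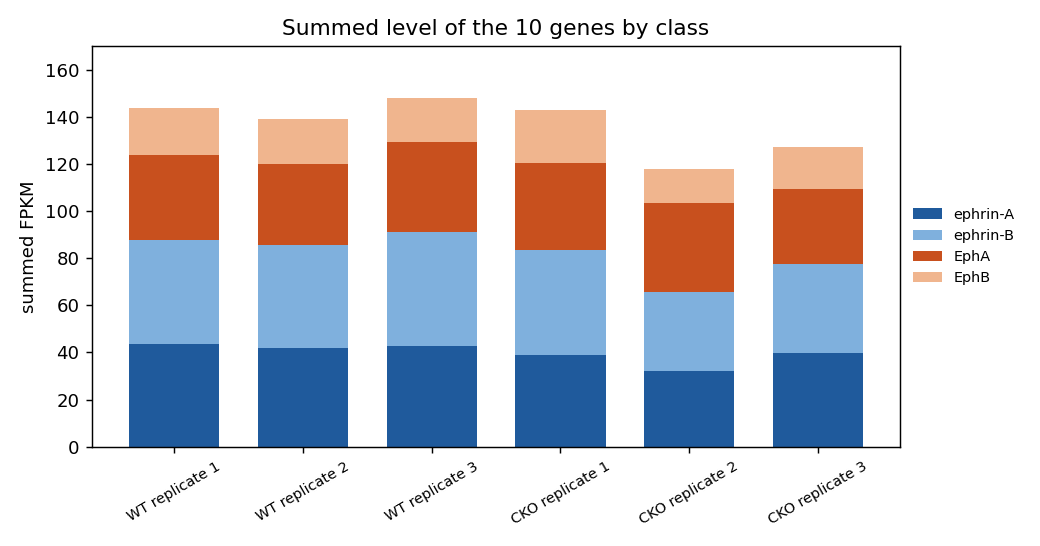
Summed FPKM of the 10 genes in each library, stacked by class from an axis that starts at 0. Ligand sums (blue shades) are 85.4 to 90.9 FPKM in WT and 65.5 to 83.6 FPKM in CKO, and receptor sums (orange shades) are 53.4 to 57.1 FPKM in WT and 49.3 to 59.3 FPKM in CKO.

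The windows around the start sites of *Efna2*, *Epha4*, *Epha7* and, from the rest of the family, *Ephb6* are shown because these genes had the largest difference over all 6 libraries, the higher mean, the values without overlap and the call under the block described with the other family genes. Each window covers 250 bases before and 50 bases after the RefSeq start in GRCm38.p6, so it holds upstream sequence and the first bases of the first exon, printed 5′ to 3′ in the direction of the gene. *Efna2* lay at chr10:80179232-80179531 (+), *Epha4* at chr1:77515039-77515338 (-), *Epha7* at chr4:28812881-28813180 (+) and *Ephb6* at chr6:41605261-41605560 (+). Capitals mark CCCTCCC, a C-rich run of the kind that hnRNPK is known to bind, and GGGCGG, the core of the GC box, on either strand (as GGGAGGG and CCGCCC on the other). No match to CCCTCCC overlapped a match to GGGCGG in these windows.
Efna2: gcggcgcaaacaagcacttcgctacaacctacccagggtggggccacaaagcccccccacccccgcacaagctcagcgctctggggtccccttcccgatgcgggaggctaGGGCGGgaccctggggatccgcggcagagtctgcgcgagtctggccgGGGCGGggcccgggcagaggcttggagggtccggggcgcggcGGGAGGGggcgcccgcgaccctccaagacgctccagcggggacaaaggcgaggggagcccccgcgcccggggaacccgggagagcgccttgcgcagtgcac
Epha4: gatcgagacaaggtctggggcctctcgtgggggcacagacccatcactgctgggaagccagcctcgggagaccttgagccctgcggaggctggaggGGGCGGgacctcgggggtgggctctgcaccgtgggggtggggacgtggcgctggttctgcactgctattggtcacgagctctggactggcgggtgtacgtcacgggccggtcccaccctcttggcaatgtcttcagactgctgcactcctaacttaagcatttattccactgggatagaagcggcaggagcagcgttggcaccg
Epha7: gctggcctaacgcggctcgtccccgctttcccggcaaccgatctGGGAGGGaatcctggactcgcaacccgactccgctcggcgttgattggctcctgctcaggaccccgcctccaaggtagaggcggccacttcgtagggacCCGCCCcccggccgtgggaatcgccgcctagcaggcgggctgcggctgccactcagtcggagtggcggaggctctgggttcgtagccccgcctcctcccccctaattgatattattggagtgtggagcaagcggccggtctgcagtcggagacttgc
Ephb6: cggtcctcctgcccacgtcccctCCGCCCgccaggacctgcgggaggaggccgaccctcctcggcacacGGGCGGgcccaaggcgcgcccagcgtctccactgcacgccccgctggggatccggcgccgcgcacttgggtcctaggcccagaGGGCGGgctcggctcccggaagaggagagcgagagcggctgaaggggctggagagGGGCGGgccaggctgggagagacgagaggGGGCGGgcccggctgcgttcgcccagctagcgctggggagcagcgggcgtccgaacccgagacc
All 10 genes had such a window, and 21 of the 22 family genes did, without *Efnb3*. CCCTCCC occurred in 3 of the 10 (*Efna2*, *Efna5* and *Epha7*) and in 21.3% of 27025 windows, and GGGCGG in 7 of the 10 (*Efna1*, *Efna2*, *Efna5*, *Efnb2*, *Epha4*, *Epha7* and *Ephb3*) and in 35.9% of windows. The windows of the 10 genes were 59.7% to 74.7% G and C, with a median of 66.8% beside 52.7% for all windows. A match here is a description of the letters and not of a bound site.

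Among those tested of the remaining 12 ephrin and Eph genes, *Ephb6* and *Efnb3* differed by more than any of the 10 over all 6 libraries. *Epha2* (log2 fold change 0.288) was just past *Efna2* (-0.286), the largest of the 10. Of the 7 that reached the level for testing, 3 were higher and 4 lower in CKO, with a median log2 fold change of -0.01. That median turned to 0.11 without CKO replicate 2 and to 0.0024 with median-ratio scaling. It was -0.07 without WT replicate 1 and -0.162 in the libraries numbered 2 and 3 alone. By limma 0 passed without the block (0.0650% of all genes), where 2 had an unadjusted *p* under 0.05 (8.31% of all genes), and 1 passed with it (2.81%). With limma voom 0 passed without the block and 1 with it (5.32%). That gene was *Ephb6*, which encodes a receptor whose kinase is inactive. It read 3.87, 4.94 and 4.86 FPKM in WT and 3.09, 2.56 and 2.19 FPKM in CKO. All CKO libraries were below all WT libraries, with means of 4.56 ± 0.598 FPKM and 2.61 ± 0.452 FPKM. The log2 fold change was -0.78 (SE 0.172, 95% interval -1.18 to -0.38). Its limma adjusted *p* was 0.254 without the block and 0.0215 with it, from 7.1e-06 to 0.941 over all settings tried.

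*Efnb3*, the ephrin-B gene known from the nervous system midline, read 25.7, 26.5 and 25.5 FPKM in WT and 23.4, 17.1 and 19.9 FPKM in CKO. The groups did not overlap, at a log2 fold change of -0.37 (SE 0.138, limma adjusted *p* 0.550). In the libraries numbered 2 and 3 alone *Efnb3* had a log2 fold change of -0.50 (limma adjusted *p* 0.00711) and *Ephb6* one of -1.02. Over all settings the adjusted *p* of *Efnb3* ran from 0.00711 to 1.0. *Ephb4*, the receptor of ephrin-B2 that marks venous endothelium, was the most abundant gene of the family. It read 42.1, 43.6 and 43.5 FPKM in WT and 51.2, 35.0 and 43.3 FPKM in CKO, on both sides of WT, and its log2 fold change of -0.01 became 0.13 without CKO replicate 2, -0.15 without CKO replicate 1 and 0.0024 with median-ratio scaling.

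*Efna4* had a log2 fold change of -0.12, *Efna3* of 0.12, *Epha1* of 0.20 and *Epha2* of 0.29, each with CKO and WT values that overlapped. With each library left out in turn *Efna4* ran from -0.27 (WT replicate 1 out) to -0.02 (WT replicate 2 out), *Epha1* from 0.10 (CKO replicate 3 out) to 0.28 and *Epha2* from 0.04 (CKO replicate 1 out) to 0.54 (CKO replicate 2 out). *Efna3* turned to -0.07 without WT replicate 1 and to -0.04 in the libraries numbered 2 and 3 alone. Exons of *Efna3*, *Efna4*, *Epha1* and *Ephb4* share bases with a gene on the opposite strand, by 344, 168, 236 and 33 bases. Whether reads were counted by strand is not given in the sources used here, so reads from such partners may be included. Exons of the 10 genes shared no base with another gene. *Epha5*, *Epha6*, *Epha8*, *Epha10* and *Ephb1* stayed under a mean of 0.5 FPKM and were not tested. Of these, *Epha8* read 0.530, 0.426 and 0.302 FPKM in WT and 0.211, 0.0997 and 0.160 FPKM in CKO, from 9 to 48 recovered reads a library.

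Genes that act with the receptors and ligands did not pass the test without the block. Of 61 listed genes for adaptors, kinases and other proteins that act downstream of the receptors or on the ephrin-B tails, 55 were tested. Of these 21 were higher and 34 lower in CKO, and the median difference was -0.07 on the log2 scale. It became -0.03 and -0.11 without WT replicates 1 and 2, and -0.12, -0.04 and -0.02 without CKO replicates 1, 2 and 3. The count called was 0 without the block, beside 0.0650% of all genes, and 1 with it, beside 2.81%. At an unadjusted *p* under 0.05 the counts were 1 and 3, beside 8.31% and 18.4% of all genes. In the libraries numbered 2 and 3 alone 3 (*Inppl1*, *Mmp14* and *Pak1*) were called, beside 15.0% of all genes. The gene called with the block was *Pak1*, a kinase that Rac and Cdc42 activate. It read 12.2, 12.8 and 12.9 FPKM in WT and 9.15, 8.29 and 10.1 FPKM in CKO. The groups did not overlap, at a log2 fold change of -0.46 (SE 0.118), with a limma adjusted *p* of 0.342 without and 0.0414 with the block and a range of 0.00997 to 0.999 over all settings.

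A total of 7 of the 55 signalling genes had no overlap between genotypes, beside 14.5% of all genes. *Kalrn* had a log2 fold change of -0.30 (limma adjusted *p* 0.692). *Rac1*, known for its part in actin remodelling, read 62.3, 66.5 and 64.5 FPKM in WT and 58.6, 50.3 and 61.3 FPKM in CKO. Its log2 fold change was -0.19 (limma adjusted *p* 0.760), or -0.103 without CKO replicate 2. *Adam17*, a sheddase, had a log2 fold change of 0.15 (limma adjusted *p* 0.788).

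Transcription factors known to act upstream of Eph genes in the limb did not pass limma over all 6 libraries, with or without the block. *Lmx1b*, which specifies dorsal limb identity and acts upstream of *Epha4*-dependent axon choice, read 34.3, 23.6 and 25.7 FPKM in WT and 28.1, 15.2 and 19.9 FPKM in CKO. It was lower in CKO within each number, at a log2 fold change of -0.43 (SE 0.241, limma adjusted *p* 0.705, and 0.0544 with the block). *Lmx1b* passed in the libraries numbered 2 and 3 alone (-0.50, limma adjusted *p* 0.00908) and with voom and the block (adjusted *p* 0.0281), with a range up to 1.0 over the other settings. Its log2 fold change was -0.66 without CKO replicate 1 and -0.22 without CKO replicate 2. *Hoxa13*, which acts on *Epha7* in the autopod, read 18.9, 26.6 and 30.5 FPKM in WT and 33.6, 30.2 and 33.4 FPKM in CKO. The largest step was between the libraries numbered 1, and the log2 fold change was 0.38 (SE 0.182, limma adjusted *p* 0.642), or 0.18 without WT replicate 1. *Hoxd13*, expressed in the same distal mesenchyme, read 54.7, 114.9 and 122.9 FPKM in WT and 92.1, 107 and 120 FPKM in CKO. Its log2 fold change of 0.20 (limma adjusted *p* 0.904) turned to -0.07 in the libraries numbered 2 and 3 alone. In CKO limb buds at E11.5 the paper reports lower *Lmx1b* by in situ hybridization and qPCR, and lower *Hoxd13* by qPCR.

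Whole limb buds were sequenced, so fewer cells of a type and less RNA per cell cannot be told apart. Markers of the mesenchyme, the tissue in which most of these genes are known to act, were present and mostly lower in CKO. Of 10 mesenchyme markers 9 were lower, with a median log2 fold change of -0.18 beside -0.19 for the ephrin and Eph genes. Their summed level was 340, 368 and 352 FPKM in WT and 326, 294 and 320 FPKM in CKO. The most abundant, *Twist1*, read 91.6, 114 and 103 FPKM in WT and 90.7, 83.0 and 101.6 FPKM in CKO. With the block 1 marker of 10 was called, beside 2.81% of all genes. It was *Tbx5*, the forelimb T-box gene, at a log2 fold change of -0.93 (limma adjusted *p* 0.358 without and 0.00734 with the block). In the libraries numbered 2 and 3 alone 3 were called, all lower (*Osr1*, *Tbx5* and *Twist2*), beside 15.0% of all genes called there in either direction. The counts of the other marker lists in these libraries stand beside the same share.

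Markers of vessels, where *Efnb2* and *Ephb4* are also known, did not pass limma over all 6 libraries. All 11 tested of 12 endothelial markers had a lower mean log2 level in CKO, with a median log2 fold change of -0.42. By limma 0 were called and 3 had an unadjusted *p* under 0.05, beside 8.31% of all genes. With the block 0 were called and 6 had an unadjusted *p* under 0.05, beside 18.4% of all genes. Their sum was 44.7, 35.3 and 37.6 FPKM in WT and 23.8, 34.5 and 32.5 FPKM in CKO. The step lay mostly between the libraries numbered 1, where the median difference was -0.95, against -0.04 and -0.10 for numbers 2 and 3, where 2 markers (*Erg* and *Sox18*) were called lower with the number 1 libraries left out, beside 15.0% of all genes. *Cdh5*, the most abundant, read 12.4, 6.79 and 7.95 FPKM in WT and 6.30, 7.42 and 7.39 FPKM in CKO. For *Efnb2* the differences by number were -0.11, -0.21 and -0.27, and its relation to the endothelial markers was not tested.

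Cartilage markers were lower in CKO for all 6 of the 8 that reached testing, at a median of -0.36 on the log2 scale. By limma 0 were called and 1 had an unadjusted *p* under 0.05, beside 8.31% of all genes. Their sum was 98.9, 155 and 155 FPKM in WT and 109, 94.3 and 103 FPKM in CKO, so the step lay in numbers 2 and 3. In the libraries numbered 2 and 3 alone all 6 tested markers were called lower by limma. *Col2a1*, the most abundant, read 45.6, 81.3 and 83.5 FPKM in WT and 57.2, 47.9 and 55.2 FPKM in CKO.

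Muscle markers were higher for all 7 of 9 tested, at a median of 0.47. Their sum was 19.3, 36.3 and 33.1 FPKM in WT and 32.2, 42.0 and 38.9 FPKM in CKO, and the most abundant, *Myog*, read 2.23, 13.6 and 11.2 FPKM and 6.84, 15.5 and 12.7 FPKM. Ectoderm markers were higher for 8 of 10, at a median of 0.15. Their sum was 49.7, 70.1 and 82.1 FPKM in WT and 55.0, 83.9 and 83.8 FPKM in CKO, with *Krt5* at 6.54, 18.5 and 22.3 FPKM and 12.1, 22.8 and 21.9 FPKM. The sums of both lists were lowest in the libraries numbered 1, as was *Efna1*, while *Pax3* and *Fgf8* of these lists were highest there. Without those libraries 2 muscle markers (*Met* and *Pax3*) and 0 ectoderm markers were called, the muscle markers higher.

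Neural markers were higher for 4 and lower for 3 of the 7 tested of 12, with sums of 17.1, 19.9 and 20.0 FPKM in WT and 17.4, 19.2 and 18.1 FPKM in CKO. Their most abundant gene *Tubb3* read 3.92, 4.94 and 4.44 FPKM and 2.84, 3.19 and 3.996 FPKM, and *Isl1* was called higher in the libraries numbered 2 and 3 alone. Macrophage markers were higher for 8 of 10, at a median of 0.24, with sums of 28.4, 27.4 and 33.7 FPKM and 27.8, 41.8 and 29.8 FPKM. Their most abundant gene *Cd68* read 10.3, 7.01 and 5.18 FPKM and 7.47, 6.32 and 5.44 FPKM.

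Erythroid genes had the highest summed FPKM of the marker lists and differed widely between CKO libraries. All 10 had a higher mean log2 level in CKO, at a median of 0.44. By limma 0 were called and 0 had an unadjusted *p* under 0.05, beside 8.31% of all genes. In the libraries numbered 2 and 3 alone 5 were called higher. Their sum was 37967, 63464 and 64210 FPKM in WT and 30999, 143320 and 85787 FPKM in CKO. *Hbb-y*, an embryonic globin, read 14198, 31035 and 31698 FPKM in WT and 12266, 78176 and 41794 FPKM in CKO. CKO replicate 2, the library highest in these genes, was the lowest library for *Efna2*, *Efna5*, *Efnb1*, *Efnb2*, *Ephb2* and *Ephb3*, 6 of the 10 beside 25.4% of all genes tested. It was the highest CKO library for *Epha3* and *Epha7*, and for *Epha4* it lay above all WT libraries. No marker list had a gene at 0 in all libraries. Over all 6 libraries limma without the block called 0 genes of these lists, as did voom, and voom with the block called 2 mesenchyme, 2 erythroid, 1 endothelial, 1 muscle and 1 cartilage marker, beside 5.32% of all genes, all among those called in the libraries numbered 2 and 3 alone. The part of these markers in the ephrin and Eph values was not tested.

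The pattern over the 6 libraries most like that of *Efna2* was found in *Mapk8ip1* (Pearson *r* 0.992), *Ccdc40* (0.991) and *Gpaa1* (0.989), and that most like *Efnb1* in *Rapgefl1* (0.997), *Slc44a2* (0.993) and *Gaa* (0.992). *Mapk8ip1* read 10.2, 9.45 and 9.31 FPKM in WT and 9.28, 7.19 and 8.34 FPKM in CKO, and *Rapgefl1* read 1.25, 1.41 and 1.54 FPKM in WT and 1.31, 0.911 and 1.12 FPKM in CKO. Among the 10 genes the most alike pair was *Efna2* and *Ephb2* (*r* 0.937) and the least alike *Efna1* and *Epha4* (*r* -0.666). These values describe 6 libraries that share their depth and cell makeup across genes, and the highest were picked from all genes tested.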

How the data were processed

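Per the paper's methods, the authors made stranded mRNA libraries from limb bud cells. The deposited values were FPKM per gene. The submitters' processing notes name, without roles, cutadapt 2.5, HISAT2 2.1.0, featureCounts 1.6.3 and mm10, and how the FPKM were made is not given in the sources used here. Low FPKM values, times the exon length of GENCODE vM21 and the library size, came out whole within 0.1 for 94.4% to 95.0% of values, which gave the reads per library. limma 3.58.1 (R 4.3.3; lmFit, eBayes with trend) was run on log2(FPKM + 0.1) for 12305 genes with a mean of at least 0.5 FPKM, Benjamini-Hochberg adjusted over all of them, without a block and, as an alternative, with the replicate number as a block. Without the block, limma's *p*-values measure the difference against the spread between biological replicates. With the block they use the spread left after the replicate number is fitted. In the libraries numbered 2 and 3 alone they leave out the number 1 libraries, which stood apart from the rest. The code was tested on simulated data.

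Deviations from the group mean correlated at 0.64, 0.44 and 0.27 for numbers 1, 2 and 3, and at -0.6 to 0.49 for unlike numbers. The data thus set number 1 apart from the other numbers (-0.6 to -0.37). They did not set 2 apart from 3, since WT 2 with CKO 3 (0.49) and WT 3 with CKO 2 (0.31) correlated as like numbers did. Neither the labels nor the paper say what a number stands for.

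Genes named were the 10 members, the other family genes, *Hnrnpk*, *Hoxa13*, *Hoxd13* and *Lmx1b*, signalling genes past an adjusted *p* of 0.05 with or without the block or with the 3 largest differences each way among those without overlap, the most abundant gene of each marker list, and the genes most alike *Efna2* and *Efnb1*. A gene that this rule names is not reported here. *Tbx5*, *Epha8*, *Fgf8* and the other signalling and marker genes named as called in the libraries numbered 2 and 3 alone were added after their values were seen. The members and lists were chosen with earlier results of these data known. Alternatives were other pseudocounts, filters, scalings and variance settings, and left-out libraries. limma voom on the recovered reads and the marker calls in the libraries numbered 2 and 3 alone were chosen after seeing the data. Sequences came from RefSeq (promoter windows) and GENCODE vM21 (coding tails). The other assays of the series were not used here.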

Additional observations from a re-analysis of the deposited data

How the results depend on the processing

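Over 17 alternatives for 26 genes taken by the naming rule, 418 of 442 pairs kept their direction and side of the limma threshold, 12 reversed and 12 newly passed. None of these genes passed limma without the block over all 6 libraries, so no call could be lost. For the 10 ephrin and Eph genes 165 of 170 pairs were unchanged. Causes were not tested. The replicate block raised the calls among all genes to 139 higher and 207 lower in CKO and called 1 of the other family genes (*Ephb6*) and 1 signalling gene (*Pak1*), beside the marker *Tbx5*. With limma it changed no other call of the genes taken by the naming rule. The libraries numbered 2 and 3 alone gave 867 higher and 984 lower, with 1 of the 10 genes called, 2 of the other family and 3 signalling genes, and 6 of the 10 without overlap. Quantile normalization gave 12 higher and 0 of the 10 without overlap, and no filter gave 0 lower. limma voom on recovered reads, chosen after seeing the data, called 9 higher and 1 lower, and with the block 258 higher and 396 lower, 1 of the other family and 1 signalling gene, beside *Hnrnpk* and *Lmx1b*. Leaving out a library gave 1 to 10 higher (1 without the third WT library and 1 without CKO replicate 2 or 3, but 10 without CKO replicate 1), 0 to 13 lower (13 without CKO replicate 1), and 1 to 6 of the 10 without overlap (6 without CKO replicate 1). Over these, 0 of the 10 were called.

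Log2 fold changes that reversed were those of *Efna1* (-0.313 to 0.19 over the left-out libraries, above 0 without WT replicate 2, WT replicate 3 or CKO replicate 1), *Ephb3* (-0.239 to 0.0842, above 0 without CKO replicate 2), *Efna3* (-0.0698 to 0.28, below 0 without WT replicate 1, and -0.0374 in numbers 2 and 3 alone), *Hoxd13* (-0.17 to 0.413, below 0 without WT replicate 1, and -0.0714 in numbers 2 and 3 alone) and *Ephb4* (-0.146 to 0.128, above 0 without CKO replicate 2, 0.0024 with median-ratio scaling, and 0.0026 and 0.0024 with voom without and with the block). The median of the other family genes ran from -0.0698 to 0.109 over the left-out libraries, above 0 without CKO replicate 2, and reversed to 0.00236 with median-ratio scaling and to 0.0026 and 0.00242 with voom. Depth bears on the lowest genes: *Epha8* rested on 9 to 48 recovered reads a library.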
